A study of Mus musculus with 13 samples.

Results

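Hippocampal H3K4me3 was compared between Mtr knockout mice that had received SRT2104 and wild-type mice that had received vehicle. The comparison asks what still differs from the control baseline in knockout animals after treatment. It uses 8 of the 13 libraries, chosen by their labels: 4 from treated knockouts (genotype label TC;MLML_MTR-KO) and 4 from wild-type vehicle mice (genotype label MLML-WT). All are C57BL/6 mice. In the knockouts, floxed exons 4 and 5 of Mtr are removed by Cre recombinase expressed from the Thy-1.2 promoter, so recombination is limited to cells in which that promoter is active. Gavage ran from day 15 to day 36, with 3 doses a week and 9 in all. The treated group received 50 mg/kg of SRT2104, and the vehicle group received DMSO-PEG. Genotype and compound differ together between the groups and cannot be told apart here. Sex differs too: by the sex letter in the column names, all 4 vehicle libraries are male, while treated knockouts 1 and 3 are female and 2 and 4 are male. Xist and the Y-linked genes fitted that letter in 13 of 13 libraries, and only autosomal regions are reported. A repeat with male libraries alone sets 2 treated knockout libraries against the 4 vehicle libraries. The other libraries were used for the spread between replicates and are shown for reference. They are 2 from untreated knockouts (both female, not labelled as given vehicle) and 3 from wild-type mice given SRT2104 (1 female and 2 male).

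H3K4me3 marks the nucleosomes around active and poised transcription start sites, and the mark is laid down by SET1 and MLL family methyltransferases that use S-adenosylmethionine as methyl donor. Mtr encodes methionine synthase, the cobalamin-dependent enzyme that remakes methionine from homocysteine and so supplies that donor. SRT2104 is an activator of SIRT1, an NAD-dependent deacetylase of histones and transcription factors.

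The measurement is the number of sequencing reads in each H3K4me3 region, divided by 1 factor per library and called here the normalised read count. The 8 libraries held 6256255 to 9009109 reads in regions, and the 13 libraries 3963196 to 9009109. The table covers 14006 regions that overlap a promoter window, of which 13495 are autosomal, with a median length of 1485 bp. Of the autosomal regions, 1636 belong to more than 1 gene, and their signal cannot be assigned to 1 of them. Most such regions are named here for 1 gene. Examples below are Mttp (shared with Trmt10a), Ppp1r10 (Mrps18b and Mir1894), Mut (Cenpq), Trp53 (Wrap53) and Ndufa11 (Vmac). Differences are on the log2(value + 1) scale, treated knockout minus vehicle, with limma p-values adjusted by the Benjamini-Hochberg method over all 14006 regions and a threshold of 0.05. Whether each library is a separate mouse is not stated in the labels, so the p-values describe how these libraries spread, which may be technical. The tissue label was checked with promoters of known cell types. An autosomal region was found for 36 of 43 such markers, and the median vehicle level over all autosomal regions was 369 normalised reads per kb. The forebrain and hippocampal markers ranged from 95.2 per kb at Neurod6 to 442 per kb at Lhx2, with Lhx2 and Prox1 (428 per kb) above that median and Zbtb20, Neurod2, Bcl11b and Emx1 below it. The hindbrain and spinal genes Hoxa5 (55.4 per kb), Hoxd3 (44.2 per kb) and Pax3 (62.0 per kb) were low, while En2 of midbrain and cerebellum had 245 per kb. The microglial genes Trem2, P2ry12 and Csf1r had 44.4, 49.5 and 74.4 per kb. Astrocyte markers ranged from 99.8 per kb at Aqp4 to 361 per kb at Slc1a2. Oligodendrocyte markers ranged from 97.1 per kb at Mog to 314 per kb at Mbp. Both ranges lie within that of the forebrain and hippocampal markers, so these levels do not separate those cell types. Along the first principal component of the 8 libraries, which held 30.4% of the variance, vehicle replicate 3 scored 21.6 and the other libraries -7.37 to 5.33. That library stands apart, and values without it are given for a part of the results.

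A single autosomal region passed the threshold, the promoter of Thy1, which encodes a surface glycoprotein of mature neurons (1 of 13495 regions, 0.00741%). The region (chr9:43851054-43853496, mm9) had 588, 607, 766 and 636 normalised reads in vehicle replicates 1 to 4. In treated knockouts 1 to 4 it had 1284, 1310, 1263 and 1042. Every treated knockout was above every vehicle library, and the groups did not overlap. The mean rose from 649 ± 79.99 to 1225 ± 123 (SD, n = 4 each), a 1.89-fold difference and a log2 difference of 0.92 (SE 0.09, 95% interval 0.72 to 1.12, limma adjusted p = 0.0018). Untreated knockout libraries had 1260 and 1082, and wild-type SRT2104 libraries 778, 674 and 669. The 6 knockout libraries therefore all exceeded the 7 wild-type libraries.

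**Figure D1:**
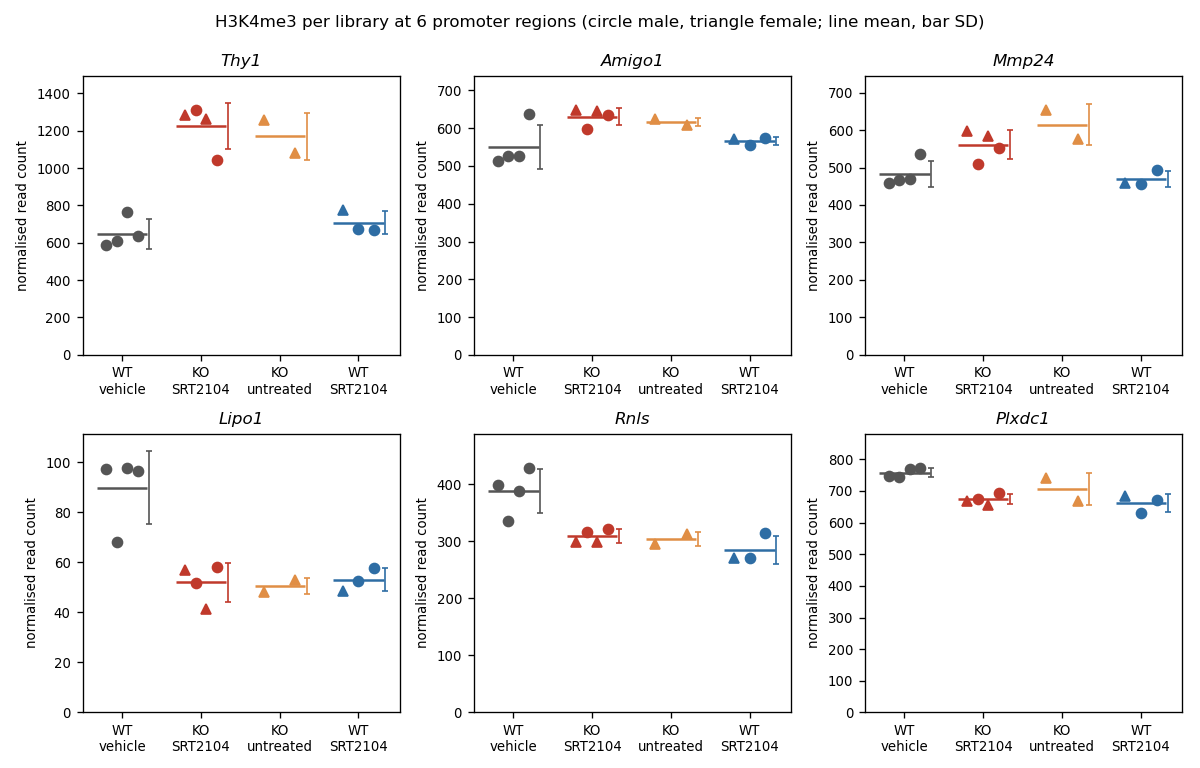
Normalised read count (vertical axes, from 0) in each of the 13 libraries at the promoter regions of Thy1, Amigo1, Mmp24, Lipo1, Rnls and Plxdc1, by group, with circles for males, triangles for females, a line at the group mean and a bar for the SD. At Thy1 all knockout libraries lie at 1042 or above and all wild-type libraries at 778 or below; at Lipo1 and Rnls the 4 vehicle libraries lie above all others.

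With sex as a covariate the log2 difference was 0.84 (limma adjusted p = 0.00419). Among males alone it was 0.85 (SE 0.13, limma adjusted p = 1.00 in that smaller fit). Female and male treated knockouts differed by 0.12 on the log2 scale at Thy1. When the 8 libraries were fitted without the other 5, the limma adjusted p was 0.0658. With a replicate block on those 8 libraries it was 0.0365. The call with the 8 libraries alone therefore depends on the model. The Cre transgene carries a Thy-1.2 promoter, and the reads counted at this region do not tell transgene copies from the endogenous gene.

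No region next to Thy1 passed. The 8 neighbouring regions, at Tmem136, Pou2f3, Oaf, Pvrl1, Usp2 (2 regions) and C1qtnf5 (2 regions), start 927 kb before to 64.3 kb after it. Their log2 differences were -0.13 to 0.07. The closest was a Usp2 promoter 23.96 kb away, with 389 ± 14.3 in vehicle and 388 ± 6.17 in treated knockouts.

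**Figure D2:**
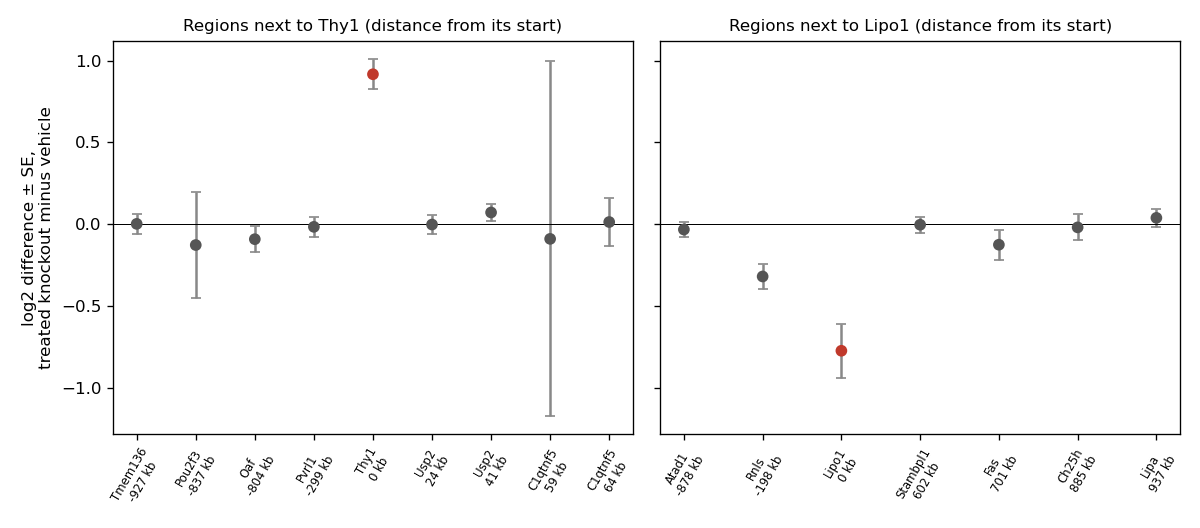
Log2 difference, treated knockout minus vehicle, with its SE (vertical axis) for Thy1 and Lipo1 (red) and the regions beside them in order along the chromosome, labelled with their distance in kb. Thy1 stands at 0.92 among neighbours between -0.13 and 0.07; Lipo1 at -0.78 has Rnls at -0.32 on one side.

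No region passed as lower (0 of 13495, 0.0%). The smallest p-values among lower regions came from a pair of regions on chromosome 19. The Lipo1 region, named for a member of the acid lipase family (chr19:33663909-33664457, mm9), had 97.2, 68.1, 97.8 and 96.8 in vehicle replicates 1 to 4 and 57.0, 51.8, 41.2 and 58.2 in treated knockouts 1 to 4. The groups did not overlap, and the log2 difference was -0.78 (SE 0.16, limma adjusted p = 0.569). The symbol Lipo1 also stands as an older name of Lipo3 in the RefSeq table, so the gene behind this region is uncertain. The second, 198 kb before it, was Rnls (chr19:33465911-33467103, mm9), which encodes the flavoprotein renalase. It had 398, 335, 388 and 428 in vehicle and 298, 317, 299 and 322 in treated knockouts. Its log2 difference was -0.32 (SE 0.07, limma adjusted p = 1.00). Untreated knockout libraries had 48.2 and 52.8 at Lipo1 and 296 and 313 at Rnls. Wild-type SRT2104 libraries had 48.7, 52.5 and 58.0 at Lipo1 and 271, 271 and 314 at Rnls. At both regions the 4 vehicle libraries were above all 9 other libraries, of either genotype. The other regions around Lipo1, at Atad1, Stambpl1, Fas, Ch25h and Lipa, had log2 differences of -0.13 to 0.04.

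The next regions in order of p differed by small amounts and did not pass. At an unadjusted p under 0.05 there were 111 higher regions (0.823%) and 178 lower regions (1.32%), together 289 (2.14%), fewer than the 5% that uniformly spread p-values would give. Among the higher ones, Amigo1, a neuronal adhesion protein, had 513, 525, 526 and 638 in vehicle and 648, 597, 645 and 634 in treated knockouts (log2 0.20). Vehicle replicate 4 lay within the treated range, so the groups overlapped. Mmp24, a membrane-bound matrix metalloproteinase of the nervous system, had 459.9, 466, 469 and 536 in vehicle and 598, 510.3, 583 and 551 in treated knockouts (log2 0.22), again with vehicle replicate 4 inside the treated range.

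Other higher regions with small p-values were Ube2ql1, a ubiquitin-conjugating enzyme family member (945 ± 74.3 and 1070 ± 25.1, log2 0.18), the brain cadherin Cdh12 (142 ± 14.1 and 179 ± 13.1, log2 0.33) and Csnk2a2, a catalytic subunit of casein kinase 2 (log2 0.18). The list went on with the Mir3078 region, which also holds the promoter of the neuronal microRNA gene Mir124a-1 (log2 0.17), Egln1, a prolyl hydroxylase of the oxygen-sensing pathway (0.17), the sodium-calcium exchanger Slc24a4 (0.16), the zinc-finger gene Insm2 (0.19) and 4930447C04Rik (0.58). Ube2ql1 passed in 1 alternative, limma voom with sample quality weights, at a log2 difference of 0.23 (adjusted p = 0.0138). Without vehicle replicate 3 the log2 difference of Ube2ql1 was also 0.23, and it did not pass (limma adjusted p = 0.513).

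Lower regions were led, after Lipo1 and Rnls, by Plxdc1, which encodes a plexin-domain membrane protein. It had 747, 744, 769 and 773 in vehicle and 669.8, 675, 656 and 694 in treated knockouts (log2 -0.17, SE 0.05, limma adjusted p = 1.00), with no overlap. The orphan receptor gene Gpr19 (644 ± 14.7 and 574 ± 10.7, log2 -0.17) and the zinc-finger gene Zfp184 (627 ± 27.7 and 559.8 ± 16.6, -0.16) followed. After them came the SNARE gene Vamp5 (236 ± 12.5 and 196 ± 15.3, -0.27) and the receptor tyrosine phosphatase gene Ptprs (540.1 ± 20.7 and 477 ± 19.1, -0.18). The remaining regions were Ppp1r10, a regulatory subunit of protein phosphatase 1 (log2 -0.20), the mitochondrial glycine carrier Slc25a38 (-0.19), Zfp637 (-0.15), the lipoprotein assembly gene Mttp (-0.15) and the minor spliceosome gene Rnpc3 (-0.15). These regions cover different functions, and every one of them missed the threshold.

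The promoters of Mmp24 and Amigo1 (higher) and Vamp5 and Slc25a38 (lower) show the sequence context of these small differences. They are the first 2 regions in each direction, by p, with an unambiguous RefSeq promoter entry, and were chosen after their values were seen. Each runs from 250 bases before to 50 bases after the start, 5′ to 3′ on the gene's strand, in build GRCm38.p6: chr2:155775092-155775391 (plus strand) for Mmp24, chr3:108186039-108186338 (plus) for Amigo1, chr6:72380419-72380718 (minus) for Vamp5 and chr9:120110132-120110431 (plus) for Slc25a38. Capitals mark CG dinucleotides.
Mmp24: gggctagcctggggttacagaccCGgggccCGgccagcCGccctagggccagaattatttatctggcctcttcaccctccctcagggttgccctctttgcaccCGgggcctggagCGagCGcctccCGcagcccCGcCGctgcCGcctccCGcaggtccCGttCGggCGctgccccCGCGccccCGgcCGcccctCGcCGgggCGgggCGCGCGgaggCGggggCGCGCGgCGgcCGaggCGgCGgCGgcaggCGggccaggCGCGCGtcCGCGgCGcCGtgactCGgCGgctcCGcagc
Amigo1: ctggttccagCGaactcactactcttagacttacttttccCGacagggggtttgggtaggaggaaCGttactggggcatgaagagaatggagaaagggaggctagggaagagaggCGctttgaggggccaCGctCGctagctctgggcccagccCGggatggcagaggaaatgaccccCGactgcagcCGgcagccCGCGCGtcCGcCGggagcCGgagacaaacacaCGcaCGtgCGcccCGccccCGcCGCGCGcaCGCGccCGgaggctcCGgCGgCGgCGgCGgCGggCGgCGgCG
Vamp5: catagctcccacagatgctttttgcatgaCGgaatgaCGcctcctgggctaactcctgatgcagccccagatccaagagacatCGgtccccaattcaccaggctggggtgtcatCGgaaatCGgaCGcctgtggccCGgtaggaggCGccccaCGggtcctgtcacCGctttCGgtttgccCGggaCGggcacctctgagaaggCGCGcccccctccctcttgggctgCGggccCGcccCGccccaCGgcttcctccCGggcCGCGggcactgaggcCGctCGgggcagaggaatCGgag
Slc25a38: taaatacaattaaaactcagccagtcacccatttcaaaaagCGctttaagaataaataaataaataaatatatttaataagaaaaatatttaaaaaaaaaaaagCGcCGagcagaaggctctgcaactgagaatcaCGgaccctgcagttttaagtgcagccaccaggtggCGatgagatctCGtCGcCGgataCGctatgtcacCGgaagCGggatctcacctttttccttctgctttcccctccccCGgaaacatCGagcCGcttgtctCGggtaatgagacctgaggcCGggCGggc
Mmp24 has 44 CG dinucleotides in its 300 bases, Amigo1 35, Vamp5 25 and Slc25a38 17. The median is 7 over all 32851 RefSeq promoters of that length and 21 over those matched to a measured region. The letters TATAAA, searched on both strands, occur in none of the 4 and in 13.6% of all promoters.

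CG content and signal level were then set against the difference over all regions. A RefSeq promoter was matched for 9899 regions (73.4%). The match was by gene and took the first entry of each gene, so the CG count may belong to another start than the measured region. Of the regions with 0 to 13 CG, 2.82% had an unadjusted p under 0.05, and of those with 30 to 64 CG 1.45% did. The median vehicle signal was 332 in the former and 763 in the latter. Of the 3374 regions with the lowest vehicle signal, up to 310.1, 53 were higher and 24 lower at that threshold, and of the 3374 with the highest 12 were higher and 29 lower. By chromosome the share ran from 1.32% on chromosome 11 to 3.56% on chromosome 19.

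**Figure D3:**
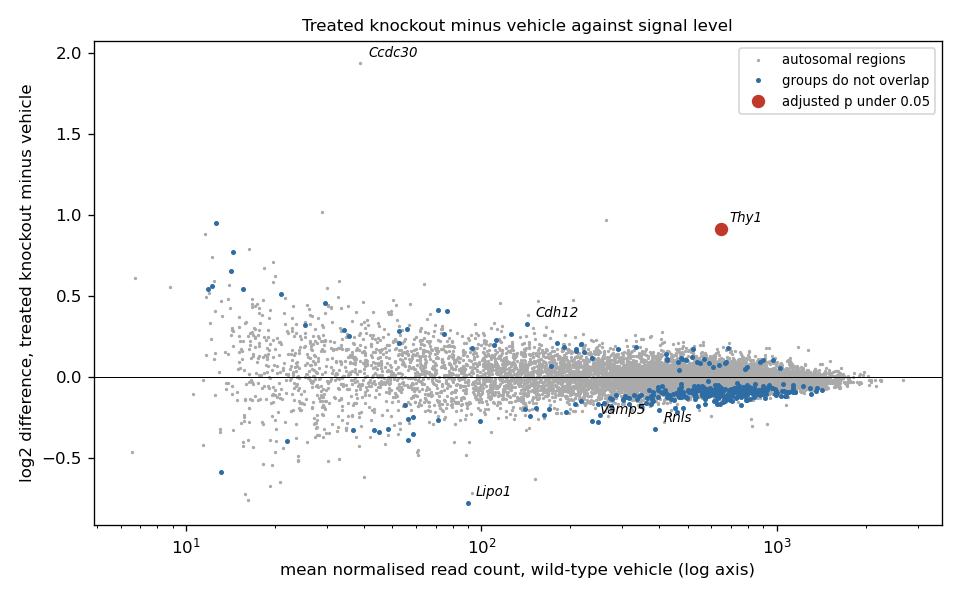
Log2 difference, treated knockout minus vehicle (vertical axis), against mean vehicle signal (horizontal log axis) for 13495 autosomal regions, with regions whose groups do not overlap in blue and the region past the adjusted threshold in red. The cloud narrows around 0 as the signal rises, and Thy1 lies far above the cloud at its signal level.

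The split between higher and lower regions depends on the scaling. With the authors' scaling the median log2 difference over all regions was -0.017 and 38.2% of regions were higher. With TMM scaling the median was 0.000323 and 50.2% were higher. The counts at an unadjusted p under 0.05 changed from 111 higher and 178 lower to 240 higher and 166 lower. The groups did not overlap at 58 higher regions (0.43%) and 312 lower regions (2.31%), together 370 (2.74%). After each library was centred on its own median, these counts were 115 and 197. Among such regions with a mean of at least 100, the largest higher differences were at Thy1, Cdh12 and Gm12830 (118 to 144 in vehicle and 147 to 158 in treated knockouts, log2 0.26). The largest lower ones were at Rnls, Gm14403 (248 ± 14.1 and 205 ± 21.1, log2 -0.27) and Vamp5.

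The male libraries alone gave no passing region in limma (0 higher and 0 lower of 13495, 0.0%). At an unadjusted p under 0.05 there were 53 higher (0.393%) and 243 lower regions (1.8%), together 296 (2.19%). DESeq2 on the same libraries called 1 higher region, Thy1 (adjusted p = 0.000196), and 1 lower region, Gm7120 (log2 -0.39, adjusted p = 0.0082). Gm7120 had 836, 839, 818 and 800.5 in vehicle, and 537 and 704 in the male treated knockouts. The 2 female treated knockouts had 617 and 855, so the 4 treated libraries spread more widely than the vehicle libraries. After Thy1, higher male regions with the smallest p included Mir3078, a second Bmpr1b region (log2 0.47) and Thsd4 (0.45). The Bmpr1b region with the most signal (296 ± 19.2 in vehicle) had a log2 difference of 0.15 among males. Bmpr1b encodes a BMP receptor and Thsd4 an extracellular matrix protein. The lower ones besides Gm7120 included Lipo1 (-0.69), Phf20l1 (-0.17) and the DNA replication clamp gene Pcna (-0.18).

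Neither the targeted gene nor the drug target passed. The Mtr promoter (chr13:12349305-12350575, mm9) had 488.5, 493, 489 and 486 in vehicle and 479, 463, 438 and 493 in treated knockouts. These overlapped, with means of 489 ± 2.67 and 468 ± 23.4 (log2 -0.06, 95% interval -0.18 to 0.05, limma adjusted p = 1.00). This promoter is outside the deleted exons and therefore says nothing of whether the deletion took place. Sirt1 (chr10:62800635-62802383, mm9) had 894 ± 19.5 and 893 ± 71.2, with a 95% interval of -0.16 to 0.15 for the log2 difference.

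The genes of the pathway were read from lists of promoters. Over all 13495 autosomal regions, 5155 were higher and 8340 lower, with a median of -0.017, which is the level to set the lists against. No member of the 29 lists passed in either direction (0 of 825 list regions). In the methionine and folate cycle, 7 of 29 regions were higher and 22 lower, with a median log2 difference of -0.013 and values between -0.14 and 0.09. With TMM scaling 16 were higher and 13 lower. The mitochondrial folate enzyme genes Mthfd1l (605 ± 36.3 and 566 ± 19.3) and Shmt2 (251 ± 13.4 and 228 ± 11.8) and the folate-retaining Fpgs (489 ± 38.6 and 457 ± 26.9) had the smallest p-values of that list. Of 17 regions for cobalamin transport and processing 14 were lower, with a median of -0.037. Among them were Mut, the other cobalamin-dependent enzyme (526 ± 23.1 and 486 ± 34.2), and the transporter Abcd4 (461 ± 14.3 and 431 ± 12.6). With TMM scaling 12 were lower.

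The enzymes that write and erase the mark showed small values. Of 19 regions for H3K4 methyltransferases and their subunits 8 were higher and 11 lower, with a median of -0.002 against 12 and 7 with TMM scaling. Rbbp5, a core subunit of the complexes, had 674 ± 37.7 and 619 ± 54.1 (log2 -0.12, limma adjusted p = 1.00). Of 10 regions for H3K4 demethylases and their partners 2 were higher and 8 lower (4 and 6 with TMM scaling), with a median of -0.022. The sirtuin and NAD supply list had 5 higher and 14 lower of 19, with a median of -0.014, and 10 higher and 9 lower with TMM scaling. Nampt, the rate-limiting enzyme of NAD salvage, had 803 ± 16.6 and 764 ± 30.2. Substrates of SIRT1 had 5 higher and 23 lower of 28 (12 and 16 with TMM scaling), among them Trp53 at 979 ± 35.1 and 930.5 ± 11.8. Without vehicle replicate 3 the medians were -0.005 for the methionine and folate cycle, -0.021 for cobalamin, 0.009 for the methyltransferases, -0.009 for the demethylases, -0.002 for sirtuins and -0.022 for SIRT1 substrates.

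Of 31 regions for hippocampal and cortical excitatory neurons, 25 were higher and 6 lower, with a median log2 difference of 0.08. With TMM scaling 27 were higher. With each region set against its vehicle mean on the log2 scale, the list's median was 0.13, 0.14, 0.09 and -0.04 in treated knockouts 1 to 4 and 0.005, -0.013, -0.014 and 0.07 in vehicle replicates 1 to 4, so treated replicate 4 was the lowest of the 8 and the groups overlapped. The male-only median was 0.005, and the median without vehicle replicate 3 was 0.05. Fibcd1, a marker of CA1 (373 ± 20.3 and 417 ± 35.4, log2 0.16), Pcp4 of CA2 (249 ± 39.7 and 285 ± 20.9, log2 0.20) and the transcription factor gene Bcl11b (763 ± 45.9 and 831 ± 69.3, log2 0.12) had the smallest p-values. Glutamate receptors and their scaffold had 29 higher of 44 (32 with TMM scaling), led by the AMPA receptor auxiliary subunit Cacng8 (520.0 ± 33.8 and 578 ± 40.8, log2 0.15). That list's medians by library were -0.10, -0.004, 0.10 and -0.009 in vehicle and 0.03, 0.09, 0.06 and -0.016 in treated knockouts, so the groups overlapped, and its median difference of 0.03 was 0.005 without vehicle replicate 1 and 0.07 without vehicle replicate 3. Presynaptic release genes had 20 higher of 32 (23 with TMM scaling), led by the calcium sensor Syt1 (685 ± 49.3 and 739 ± 32.4, log2 0.11). Its median of 0.02 was 0.008 without vehicle replicate 1 and 0.08 without vehicle replicate 3. GABAergic genes had 14 higher and 13 lower of 27, with Npy at 117 ± 16.4 and 142 ± 14.5 (log2 0.29) and the vesicular GABA transporter Slc32a1 at 60.9 ± 26.1 and 44.7 ± 23.8 (log2 -0.45). Of 29 immediate early gene regions 12 were higher and 17 lower, with Fosb at 859 ± 60.8 and 786 ± 41.2 (log2 -0.13). The median of that list was -0.027, and -0.005 without vehicle replicate 3.

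Over all autosomal regions 61.8% were lower and 2.31% were lower without overlap between the groups, and the following counts stand beside those shares. Of 76 regions of cytosolic ribosomal protein genes 64 were lower (54 with TMM scaling), with a median of -0.038, and 7 were lower without overlap. Without vehicle replicate 3 the median was -0.021. Rpl34 (729.6 ± 33.9 and 668 ± 18.9) and Rps16 (763 ± 22.5 and 708 ± 12.2) were examples. Of 72 oxidative phosphorylation regions 60 were lower (48 with TMM scaling), with a median of -0.031, and 4 were lower without overlap. Vehicle replicate 3 had the highest library median of that list, 0.07 against -0.025 to -0.012 in the other vehicle libraries, and without it the median difference was -0.011. Ndufs8 had 500.4 ± 28.0 and 454 ± 25.4 and Ndufa11 1074 ± 29.4 and 991 ± 22.0. The unfolded protein and heat shock list had 34 lower of 41 (median -0.046, and -0.020 without vehicle replicate 3), with the calcium-binding chaperone Calr higher at 679.7 ± 22.4 and 723 ± 19.4 (log2 0.09, limma adjusted p = 1.00). Cholesterol synthesis had 17 lower of 19 and fatty acid oxidation 18 lower of 23, where Eci1, an isomerase of beta-oxidation, had 382 ± 14.2 and 346 ± 20.6. Without vehicle replicate 3 these medians went from -0.027 to -0.014 and from -0.035 to -0.056, while the median of all autosomal regions went from -0.017 to -0.008. Imprinted genes had 27 lower of 38, with a median of -0.06 (-0.04 without vehicle replicate 3) and the growth inhibitor Cdkn1c at 261 ± 23.8 and 227 ± 32.3. Clock genes had 10 higher and 13 lower of 23 (12 and 11 with TMM scaling), with Timeless at 572 ± 5.78 and 520.0 ± 14.0 and no overlap. Enzymes and readers of DNA methylation had 8 higher and 8 lower of 16 (9 and 7 with TMM scaling).

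**Figure D4:**
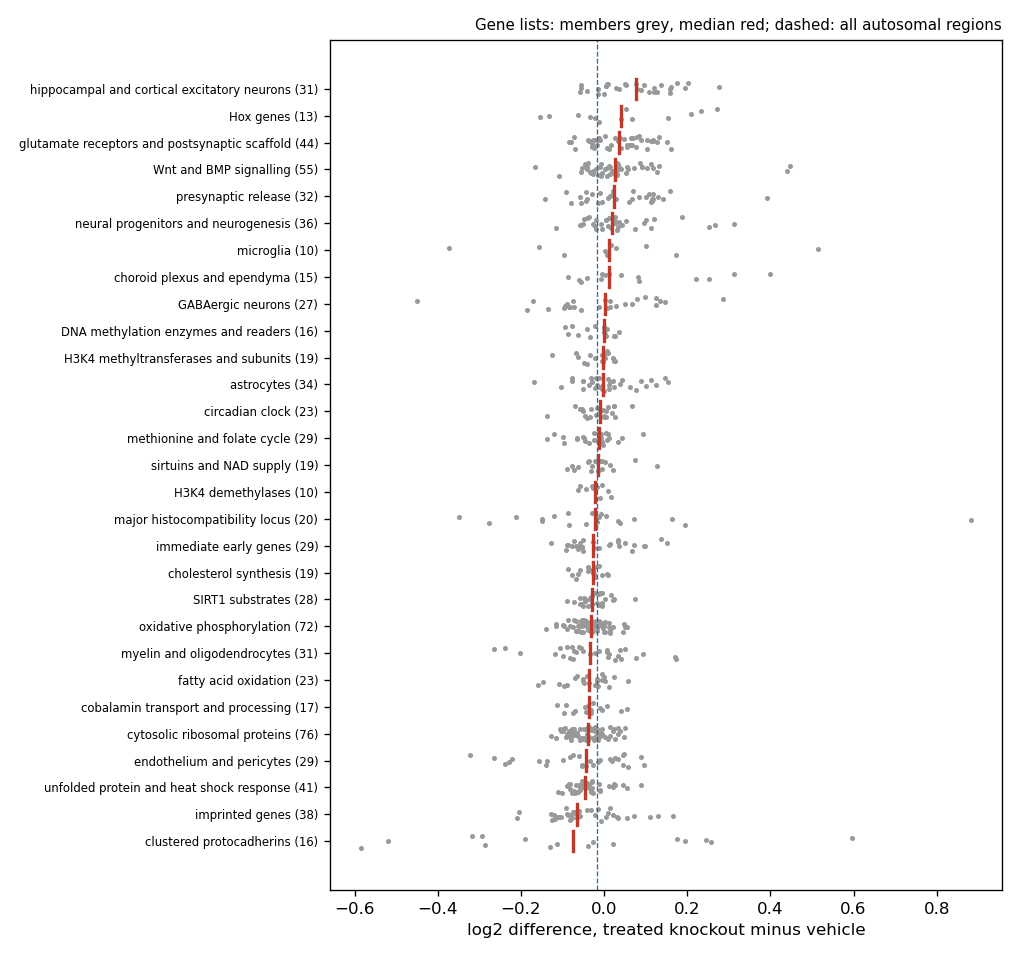
Log2 difference, treated knockout minus vehicle (horizontal axis), for the members of each of the 29 gene lists (grey points, number of regions in brackets) with the list median (red) and the median of all autosomal regions (dashed). List medians lie close to 0, from -0.08 for clustered protocadherins to 0.08 for excitatory neurons.

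Lists for other cell types and neighbouring tissue were described for the same libraries, since in whole tissue fewer cells of a type and less mark per cell cannot be told apart. Myelin and oligodendrocyte genes had 13 higher and 18 lower of 31, with a median of -0.03. Set against the vehicle mean in the same way, that list's median was 0.17, 0.06, -0.33 and 0.05 in vehicle replicates 1 to 4, and -0.007, -0.034, -0.009 and -0.050 in treated knockouts 1 to 4. Vehicle replicate 3 was the lowest of the 8, and without it the difference was -0.11. Without vehicle replicate 1 it was 0.03. Mbp, a structural protein of myelin, had 629 ± 29.8 and 670.2 ± 11.5. Hox genes had 7 higher and 6 lower of 13 (median 0.04, and -0.04 without vehicle replicate 3), choroid plexus and ependyma genes 9 higher and 6 lower of 15 (0.01 and -0.03), and the major histocompatibility locus 7 higher and 13 lower of 20 (-0.02 and -0.17, and 10 higher and 10 lower with TMM scaling). The lists' vehicle replicate 3 medians were -0.27, -0.30 and -0.30 in that order. The part of vehicle replicate 3 in these differences is given by those values without it.

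Astrocyte genes had 16 higher and 18 lower of 34 (21 and 13 with TMM scaling), with the lipid carrier Apoe at 349.8 ± 23.9 and 311 ± 24.1 (log2 -0.17) and the receptor Ntsr2 at 223 ± 7.502 and 249 ± 12.97 (log2 0.15). Microglial genes had an autosomal region for 10 of 26 names, and 7 were higher (median 0.01, and -0.06 without vehicle replicate 3). The complement gene C1qa had 21.0 ± 4.60 and 29.9 ± 1.79 (log2 0.51), while Tmem119 had 27.4 ± 5.53 and 21.7 ± 8.59 (log2 -0.37). Endothelial and pericyte genes had 19 lower of 29, beside 61.8% lower over all autosomal regions. Their median was -0.044, -0.006 without vehicle replicate 1 and -0.104 among males. Pecam1, with a weak signal, had 48.3 ± 4.41 and 38.4 ± 2.49 (log2 -0.32). Cldn5, Flt1, Kdr and Pdgfrb, with more signal, had log2 differences of -0.010, -0.044, -0.033 and -0.053. Neural progenitor genes had 23 higher of 36, with the multiciliation regulator Mcidas at 165 ± 34.9 and 204 ± 30.6. Their median was 0.018, -0.006 among males and 0.009 without vehicle replicate 3. Wnt and BMP genes had 35 higher of 55, with the ligand Wnt3a at 30.2 ± 5.56 and 41.7 ± 9.53. Their median was 0.026, -0.013 among males and 0.00095 without vehicle replicate 3. Clustered protocadherins, which give neurons their surface identity, had 10 lower of 16, at signals as low as 13.1 ± 3.30 for Pcdhb22. Their median was -0.076, -0.145 without vehicle replicate 3 and -0.016 without vehicle replicate 1.

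The precision of these differences was set by the spread between replicates. The median half-width of the 95% interval was 0.12 on the log2 scale. The whole interval lay within 0.25 of 0 in 10244 regions (75.9%), within 0.5 in 12500 (92.6%) and within 1 in 13385 (99.2%). Only 41 regions differed by 0.5 or more in either direction, and their median vehicle signal was 19.6, against 541 over all regions.

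The regions that stood out most in untreated knockouts against the same vehicle libraries were then followed into the treated knockouts. Both sets of values share the vehicle libraries and the regions were picked for their extreme untreated values, so they are given side by side as a description. Of the 8 higher regions besides Thy1 shown here, the untreated log2 differences were 0.29 to 0.55 and the treated ones -0.08 to 0.22. The treated 95% interval excluded 0 at 2 of them, Mmp24 and Mir3078. Tmem100, a membrane protein gene, had 168 ± 3.63 in vehicle, 238 and 255 in untreated knockouts, and 141, 156, 166 and 174 in treated knockouts. Calr had 679.7 ± 22.4 in vehicle, 882 and 780.4 in untreated knockouts, and 730.5, 695, 731 and 737 in treated knockouts. Of the 10 lower regions, the untreated differences were -1.22 to -0.36 and the treated ones -0.78 to 0.05, and the treated interval excluded 0 at 1, Lipo1. The ligand gene Wnt10a had 109 ± 8.06 in vehicle, 48.2 and 76.97 in untreated knockouts, and 106, 120, 120 and 106 in treated knockouts. Over all autosomal regions, an unadjusted limma p under 0.05 was reached by 1233 (9.14%) for untreated knockouts and by 1805 (13.4%) for wild-type SRT2104 mice against vehicle, beside 289 (2.14%) for treated knockouts. These shares were taken with the authors' scaling alone. On that scaling, the median log2 difference from vehicle over all autosomal regions was 0.031 for untreated knockouts. It was -0.052 for wild-type SRT2104 mice and -0.017 for treated knockouts. The groups also differ in number, sex and read depth, and the difference between the shares was not tested.

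**Figure D5:**
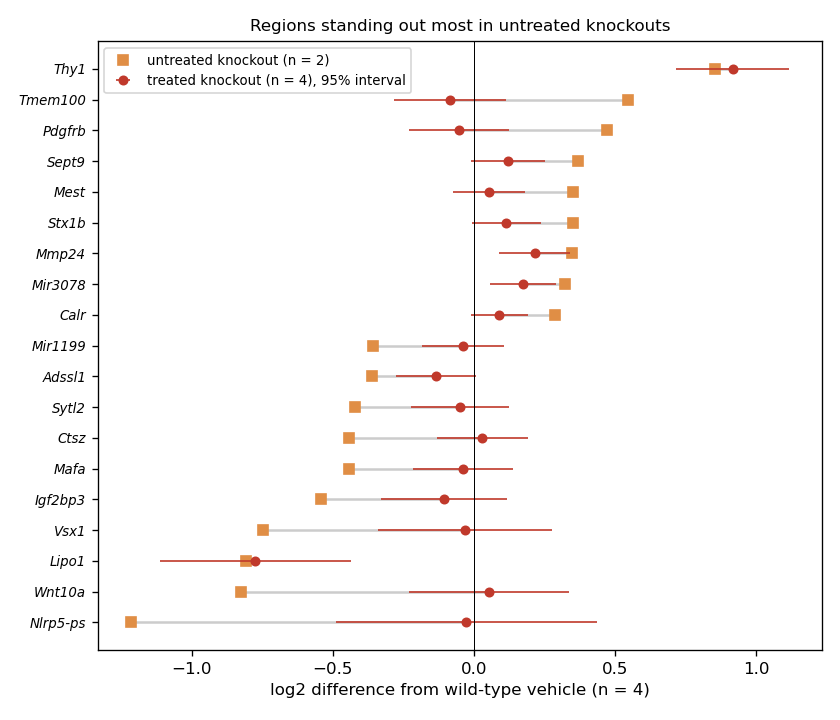
Log2 difference from wild-type vehicle (horizontal axis) in untreated knockouts (orange squares, n = 2) and treated knockouts (red circles with 95% interval, n = 4) for 19 regions that stood out most in untreated knockouts. Thy1 lies at 0.85 and 0.92; at most other regions the treated value lies closer to 0.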

How the data were processed

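H3K4me3 chromatin was immunoprecipitated and sequenced from hippocampus. The deposited table gives a signal per region and library, in which each library's read counts were divided by a factor of its own. Every value came out as a whole number of such steps, within 0.001 reads, so whole reads were recovered for count tests. The build is mm9 per the submitters' processing notes, which list the tools Bowtie2, SAMtools, bedtools, MACS2 and DESeq2 but no version or role for them. How regions were called, and whether an input library was used, is not given in the sources used here. The 17212 lines, 1 per promoter window of 2500 bp, were reduced to 14006 regions. The authors' columns of log2 fold changes and p-values were not used.

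The main test was limma 3.58.1 on log2(value + 1), fitted with an intensity trend and robust variance moderation, with 1 coefficient per group over all 13 libraries. Alternatives were edgeR 4.0.16, DESeq2 1.42.0, voom with quality weights, other scalings, pseudocounts and filters, sex as a covariate, a replicate block and leaving out each of the 8 libraries. R was 4.3.3. The main test did not treat replicate numbers as pairs.

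Named regions are the 12 per direction with the smallest p, 5 per direction in the male fit, the 3 per direction with the largest difference among regions whose groups do not overlap and whose mean is at least 100, Mtr, Sirt1, Thy1, and list members drawn from the 3 smallest p-values of each list; other regions were chosen after their values were seen. A few regions that the rule selects are not reported here. The comparison and the 29 gene lists were chosen with earlier results of these data known. Promoter sequences are from RefSeq (GRCm38.p6), for names, letters and CG counts only. Library depth was 6256255 to 9009109 reads in regions over the 8 libraries, which cannot tell PCR copies apart, so precision is taken from replicates.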

Additional observations from a re-analysis of the deposited data

Results flagged for a closer look

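In groups of 4 libraries, the highest or lowest library at a named region was compared with the other 3 by Dixon's test, which chance passes in about 1 of 20 groups. Of 238 such groups over 119 regions, 16 had a library far from the others, which is near that share. No explanation was weighed, and none was tested.

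Among the regions with the smallest p-values, vehicle replicate 2 had 68.1 at Lipo1, with the other vehicle libraries at 96.8 to 97.8, and still lay above every treated knockout. Vehicle replicate 4 had 536 at Mmp24 and 638 at Amigo1, above the other vehicle libraries and within the treated knockouts' range at both. Vehicle replicate 1 had 255 at Vamp5. Treated knockout 2 had 643 at Mir3078, and treated knockout 1 had 556 at Mttp.

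Among members of the gene lists, vehicle replicate 1 had 612 at Syt1, vehicle replicate 2 had 212 at Ntsr2, and vehicle replicate 4 had 531 at Mbd1. Vehicle replicate 3 had 101 at Lmx1a and 536 at Ift122. Treated knockout 1 had 1289 at Setd7, treated knockout 2 had 695 at Calr, and treated knockout 4 had 123 at Lhx6. At H2-T3, in the major histocompatibility locus, treated knockout 4 had 3.75 and the other treated knockouts 25.4 to 29.7. At Phf20l1, named from the male comparison, vehicle replicate 2 had 675.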

How the results depend on the processing

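The count of passing regions, 1 higher and 0 lower, moved in 3 alternatives: 2 higher with limma voom and sample quality weights (Thy1 and Ube2ql1), 0 with male libraries only and 0 with the 8 libraries alone (Thy1 adjusted p = 0.0658), where fewer libraries enter the fit. Leaving out each of the 8 libraries in turn gave 1 higher and 0 lower each time, with Thy1 at log2 0.87 to 1.00 and limma adjusted p from 7.24e-07 to 0.0438. The lower count stayed 0 in limma, edgeR and DESeq2, with 178, 187 and 65 lower regions at an unadjusted p under 0.05. In the male comparison limma and edgeR called 0 in both directions (53 and 171 higher, 243 and 174 lower at an unadjusted p under 0.05). DESeq2 called 1 higher and 1 lower, and it was not rerun with libraries left out. In limma, leaving out 1 of the 4 vehicle libraries gave 0 in both directions. Leaving out a treated knockout leaves 1 treated library. Gm7120 then had a limma log2 difference of -0.61 without treated knockout 4 and -0.23 without treated knockout 2. The cause was not tested. The male contrast with the spread from all 13 libraries, an alternative chosen after seeing the data, called 0. Same-numbered libraries of both groups correlated at 0.21, -0.22, -0.08 and 0.007 in their deviations from the group means. With so few libraries these values cannot settle whether the numbers pair them. A replicate block, fitted on the 8 libraries alone, gave 1 higher and 0 lower (Thy1 limma adjusted p = 0.0365). Of 3150 alternative values of named regions 2 lost and 4 gained a call and 0 reversed, and of 638 alternative list medians 34 moved by more than the spread between treated libraries. Depth limits mainly regions of low signal, where intervals are widest.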

Other observations

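Some of the largest differences came from regions whose signal was near 0 in single libraries, and they are given as values because none passed. They were chosen after their values were seen. The region at Ccdc30 (chr4:119031851-119032679, mm9) had 95.4, 4.32, 3.59 and 51.9 in vehicle replicates 1 to 4 and 92.9, 61.7, 89.4 and 49.7 in treated knockouts 1 to 4, which is 1.94 higher on the log2 scale (SE 0.94, limma adjusted p = 1.00). The other 5 libraries had 56.3 to 112. Vehicle replicates 2 and 3 were the lowest of the 13 libraries. At 4930481A15Rik (chr19:5406129-5407767), vehicle replicate 1 had 4.34, while the other vehicle libraries had 314 to 398 and the treated knockouts 148 to 384. The log2 difference of 0.97 there (SE 1.24) has a sign that rests on vehicle replicate 1.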
